A study of Mus musculus with 4 samples.

Results

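Interleukin ligands, their receptor chains and their soluble antagonists were examined in mouse hearts 28 days after surgery. The genes were taken by name, as every row whose symbol reads Il followed by digits and then lower-case letters or digits, leaving out 5 genes of the IL-6 and IL-11 group (Il6, Il6ra, Il6st, Il11 and Il11ra1). Of 78 matching symbols, 17 had no count in any library, which left 61 genes out of 55401 in the table: 22 ligands, 34 receptor chains, 3 soluble antagonists or binding proteins and 2 others. The others were Il4i1, an amino acid oxidase, and Il1bos, a transcript antisense to Il1b. Sham hearts (2 libraries) had a thoracotomy without ligation, and MI hearts (2 libraries) had a ligation that produces a myocardial infarction. Poly(A) RNA of all 4, labelled as heart at day 28, was sequenced as strand-marked paired-end libraries. The design text names infarcted tissue and normal left ventricle, but the region is not given for each library. No label used here gives the strain, age or sex, or says whether a library holds 1 animal or several.

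Interleukins are secreted messengers through which leukocytes, endothelial cells and fibroblasts instruct each other, and most act through receptors of 2 or more chains. In the IL-1 family, a ligand such as IL-1β or IL-33 brings its own receptor chain together with the shared accessory chain IL-1RAP and signals through MyD88, while decoy receptors and a receptor antagonist hold the signal back. Receptors of IL-2, IL-4, IL-7, IL-15 and IL-21 share the common gamma chain and signal through JAK and STAT proteins. IL-17 receptors form a family of their own and signal through the adaptor Act1. After an infarct, IL-1β is known as an early driver of inflammation, and IL-33 and IL-4 receptor signalling are studied for their effects on remodelling and macrophages.

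Total estimated counts ran from 66624106 to 75979320 per library. Low counts pile up at multiples of 4, so a count of 12, about 3 fragments, was used as the floor at or below which no level was read. That floor is 0.144 to 0.189 CPM, the count scaled to library size by the trimmed mean of M-values (TMM). The 8 cardiomyocyte markers summed to between 12100 and 13000 FPKM in the 4 libraries, which goes with the heart label. Other tissue or cell markers stood apart in single libraries. The 8 lung epithelium markers summed to 287 FPKM in MI replicate 1 and to between 0.12 and 0.88 in the other libraries. The 7 atrial markers summed to 162 FPKM in Sham replicate 1 and 5050 in Sham replicate 2, with 2640 and 1860 in MI. Nppa alone made up 2631.97 and 1855.23 FPKM of the MI sums and 151.42 of that in Sham replicate 1. Myl7 had 1127.51 FPKM in Sham replicate 2 and 0.41 to 1.2 in the other libraries. Myl4, Sln and Bmp10 were likewise high in Sham replicate 2 alone, while Tbx5 differed less. B-cell markers (8) summed to 32.9 FPKM in Sham replicate 2 against 1.6 to 6.16 elsewhere, and neutrophil markers (8) to 62.8 FPKM in Sham replicate 1 against 9.42 to 20.7. Values of single libraries are therefore given for the members described.

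Receptor chains were the larger and more abundant class, and ligands were mostly near or below detection. On the FPKM scale, which is per length and so allows levels of different genes to be compared, the median of the mean level was 0.307 over the 34 receptors and 0.0638 over the 22 ligands. A mean of at least 1 FPKM was reached by 11 receptors and 4 ligands. Counts lay above the floor in all 4 libraries for 24 receptors and 6 ligands, and at or under it in every library for 6 receptors and 9 ligands. Summed over the members, receptors made up 75.2% and 76.2% of the FPKM in Sham against 77.9% and 76.9% in MI. The receptor share of the summed FPKM was thus nearly constant over the 4 libraries, with each MI share above each Sham share. The 3 genes of highest mean FPKM, all receptors, made up 41.4% to 46.2% of the sum in each library, so they weigh most in it.

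**Figure D1:**
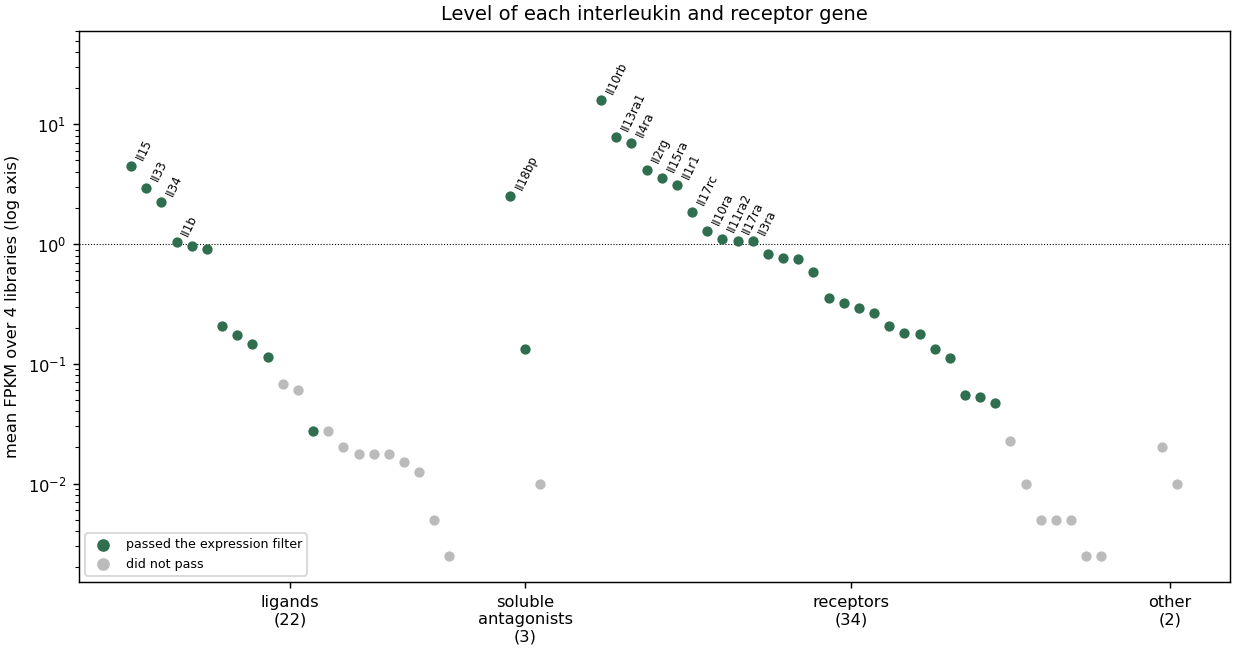
Mean FPKM over the 4 libraries (vertical log axis) of each of the 61 genes, ordered within ligands, soluble antagonists, receptors and others. Green points passed the expression filter, grey points did not, and genes of at least 1 FPKM (dotted line) are named. Receptors reach 15.9 FPKM and ligands 4.49.

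The highest receptor was Il10rb, the chain shared by receptors of IL-10, IL-22 and type III interferons, at 13.41 and 15.98 FPKM in Sham against 17.78 and 16.54 in MI. Il13ra1, which pairs with the IL-4 receptor alpha chain to bind IL-13 and IL-4, had 6.5 and 8.56 FPKM in Sham against 8.4 and 7.87 in MI. Il4ra itself followed, then Il2rg (the common gamma chain), Il15ra, which presents IL-15 to neighbouring cells, and Il1r1. Il10rb and Il13ra1 had log2 differences (MI minus Sham, on the count scale) of 0.01 ± 0.12 (SE) and -0.10 ± 0.15, within the spread between replicates, and Il15ra had -0.05 ± 0.24. The most abundant ligand was Il15, a survival factor of NK and memory T cells, at 3.82 to 5.67 FPKM, followed by Il33, Il34, Il1b, Il17d and Il16. Many other ligands had few or no counts at this depth. Il17a, Il17f, Il22, Il23a, Il13, Il9 and Il3 were among the 17 symbols with 0 counts throughout, and Il2, Il5, Il10, Il12a, Il12b and Il21 had at most 19 counts in any library.

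Of the 61 genes, 40 passed the filter on low counts and were tested: 27 receptors, 11 ligands and 2 soluble proteins. In edgeR's quasi-likelihood test 0 of the 40 passed an adjusted p under 0.05, as did 0% of the 18475 genes tested (smallest adjusted p among the members 0.201). At an unadjusted p under 0.05 there were 3 members higher in MI and 7 lower. These are 7.5% and 17.5% of the 40, where 7.12% and 4.51% of all genes tested were higher and lower. Limma on log2(FPKM + 1) gave 4 higher and 3 lower at an unadjusted p and 0 after adjustment. The share of all genes at an unadjusted p was not counted in that limma fit, so the 4 and 3 have no background beside them. On that scale the median of all genes moved by 0.10, and by 0.20 with a pseudocount of 0.1. At an adjusted p under 0.05 DESeq2 called 6 members (15%, where it called 3.44% of all genes tested). It called 2 of them higher (Il16, Il17rd) and 4 lower (Il4ra, Il33, Il1r1, Il1r2), which are 5% and 10% of the 40, beside 2.18% and 1.26% of all genes tested. A further 8 of the 40 had no adjusted p in DESeq2.

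In 8 members each MI library exceeded each Sham library (20%, where 24.9% of all genes tested did) and in 11 each was lower (27.5%, where 21.9% did). The total without overlap, 47.5%, was close to the 46.7% over all genes tested. Ligands and receptors did not separate by direction. The median log2 difference was 0.13 for the 27 receptors (15 positive, 12 negative), -0.04 for the 11 ligands (5 positive, 6 negative) and 0.00 for all genes tested. Receptors were lower at an unadjusted p for 4 and higher for 2, and ligands for 3 and 1. Without MI replicate 1 the receptor median was -0.30, and without Sham replicate 1 the ligand median was 0.36, so neither median has a fixed sign. The gap between replicates was often as large as the difference between groups: 14 of the 40 had a log2 difference larger than both within-group gaps.

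**Figure D2:**
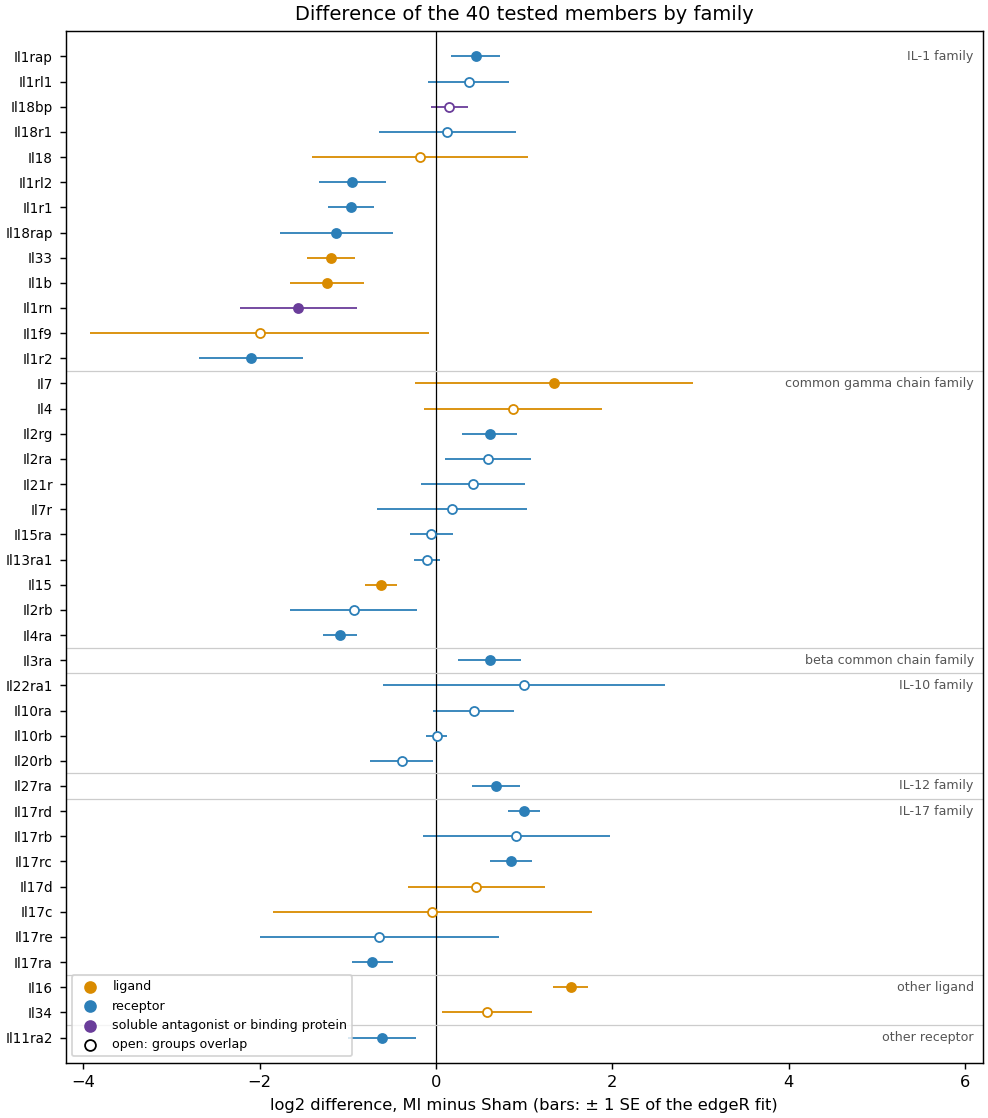
Log2 difference between MI and Sham for each of the 40 tested genes, grouped by cytokine family. Bars are 1 SE of the edgeR fit, filled points have groups that do not overlap, and colours separate ligands, receptors and soluble proteins. The IL-1 family holds 7 of the 11 filled points to the left of 0. The gamma chain group also counts the IL-13 receptor.

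**Figure D3:**
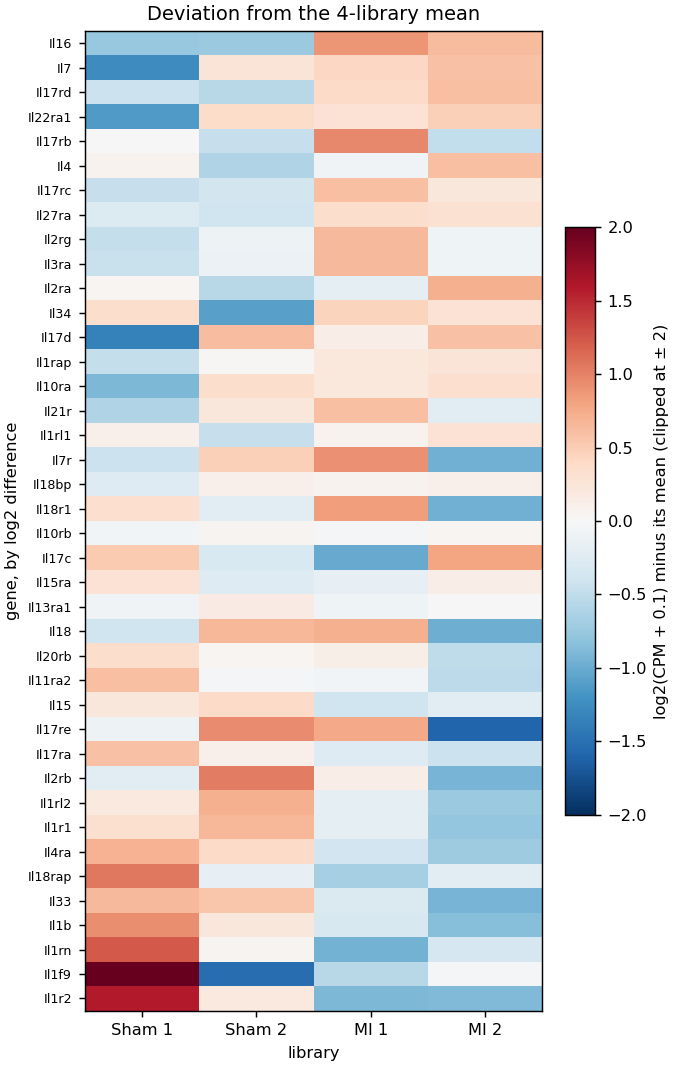
Deviation of each library from the mean of the 4 on the log2(CPM + 0.1) scale for the 40 tested genes, ordered by log2 difference. Il16, Il17rd, Il17rc and Il27ra are blue in both Sham libraries and red in both MI libraries, and Il33, Il4ra, Il1r1, Il1b and Il1r2 show the reverse. Il7r and Il18r1 are highest in MI replicate 1 and lowest in MI replicate 2.

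Promoter sequence is shown for 4 of the genes that stood apart most, so that the stretch before the start of a higher gene can be set beside that of a lower one: Il17rd and Il17rc (higher) and Il4ra and Il33 (lower). They are the members of smallest p in each direction whose listed start lies within 200 bases of the deposited gene start. Each is the 250 bases before the RefSeq start (GRCm38.p6), 5′ to 3′ on the gene's strand, with capitals marking motif matches. The motifs searched on both strands were NF-κB (GGG, any 5 bases, CC), STAT (TTC, any 3 bases, GAA), STAT6 (TTC, any 4 bases, GAA), the interferon response element (GAAA, any 2 bases, GAAA) and AP-1 (TGANTCA). Overlapping matches were counted.
Il17rd, chr14:27038751-27039000, plus strand: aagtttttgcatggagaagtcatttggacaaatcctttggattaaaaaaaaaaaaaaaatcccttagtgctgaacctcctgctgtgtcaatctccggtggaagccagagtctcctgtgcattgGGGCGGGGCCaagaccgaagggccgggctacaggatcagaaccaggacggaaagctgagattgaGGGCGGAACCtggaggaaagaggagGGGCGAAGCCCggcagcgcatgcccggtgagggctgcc
Il17rc, chr6:113471205-113471454, plus strand: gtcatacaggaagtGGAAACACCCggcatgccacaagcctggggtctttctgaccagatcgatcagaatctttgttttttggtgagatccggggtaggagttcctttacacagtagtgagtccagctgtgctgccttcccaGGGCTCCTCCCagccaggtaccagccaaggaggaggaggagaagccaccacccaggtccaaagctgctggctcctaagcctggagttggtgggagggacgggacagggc
Il4ra, chr7:125552021-125552270, plus strand: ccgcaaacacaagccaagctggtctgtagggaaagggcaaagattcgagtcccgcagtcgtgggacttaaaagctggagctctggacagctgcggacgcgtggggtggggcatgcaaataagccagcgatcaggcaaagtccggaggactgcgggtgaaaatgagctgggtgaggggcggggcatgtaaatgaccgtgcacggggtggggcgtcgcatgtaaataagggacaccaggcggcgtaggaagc
Il33, chr19:29924863-29925112, plus strand: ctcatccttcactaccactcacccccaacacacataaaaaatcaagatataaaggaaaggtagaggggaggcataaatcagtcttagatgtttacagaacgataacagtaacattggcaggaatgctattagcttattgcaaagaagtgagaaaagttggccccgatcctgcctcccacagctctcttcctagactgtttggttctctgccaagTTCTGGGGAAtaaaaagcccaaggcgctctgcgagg
Il17rd held 4 matches to the NF-κB letters and Il17rc 3, some of them overlapping and read from opposite strands. Il33 held 1 STAT6 match, and Il4ra held no match to any of the 5 patterns. These letters are common: the NF-κB pattern occurs in 45.8% of 32851 RefSeq windows of that length and in 13 of the 32 tested members with a window (40.6%). The STAT6 pattern occurs in 5.85% of all windows and in 6 of the 32 (18.8%), STAT in 7.02% and 3, AP-1 in 6.75% and 4, and the interferon response pattern in 2.98% and 1. A match is a match of letters and shows no binding.

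The IL-1 family was the group with the most members lower in MI. Of its 13 tested genes, 7 lay below Sham in both MI libraries (53.8%, against 21.9% of all genes tested) and 1 above, and 4 had an unadjusted p under 0.05, all lower. The family's median log2 difference was -0.96. Among the other 27 members 4 lay below and 7 above. With 1 library left out, a count made after these values were seen, 7 of the 13 lay below without Sham replicate 1 and 7 without MI replicate 2. Leaving out Sham replicate 2 gave 8, and leaving out MI replicate 1 gave 9. A gene that lies below with all libraries stays below when 1 is left out, so these counts could not fall under 7. The share of all genes tested that lay below rose too, as fewer libraries must be apart. It was 38% without Sham replicate 1 and 37% without Sham replicate 2. Leaving out MI replicate 1 gave 32.2%, and leaving out MI replicate 2 gave 33.9%. Bulk tissue cannot tell fewer cells of a type from less RNA per cell, here or in the results that follow.

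Il33 encodes an alarmin stored in the nuclei of fibroblasts and endothelial cells and released on damage (ENSMUSG00000024810, chromosome 19, 29925114 to 29960718, GRCm38). It had 13.7 and 12.8 CPM in Sham against 7.09 and 4.5 in MI. Both MI libraries were well below the Sham pair, which differed little from each other. The log2 difference was -1.19 ± 0.27 (edgeR adjusted p = 0.309; DESeq2 adjusted p = 0.0108). Its receptor Il1rl1, known as ST2, had 0.12 and 0.09 FPKM in Sham against 0.16 and 0.16 in MI, with a log2 difference of 0.37 ± 0.46. Membrane and soluble ST2 come from the same gene and are not separated by these values. The fibroblast markers (9) summed to 264 and 414 FPKM in Sham against 746 and 574 in MI, and the endothelial markers (9) to 126 and 145 against 215 and 175. The single markers varied: log2 differences ran from 0.02 (Gsn) to 2.96 (Postn) among the fibroblast markers. Of the endothelial markers 7 had positive and 2 negative differences, from -0.25 to 0.60, and 4 overlapped between groups. Il33 was lower in the libraries where these sums were higher. The part of cell numbers in its difference was not tested.

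Il1b, the gene of the inflammatory cytokine IL-1β, had 3.9 and 2.37 CPM in Sham against 1.59 and 1.07 in MI (log2 difference -1.23 ± 0.42, edgeR adjusted p = 0.392). The groups did not overlap, but the Sham libraries differed from each other by more than the lower of them differed from MI replicate 1. Its unadjusted p was under 0.05 with all libraries and over it without Sham replicate 1, without MI replicate 1 and without MI replicate 2. Without Sham replicate 1 the difference was -0.83. With all libraries, limma on log2(FPKM + 1) gave Il1b an unadjusted p of 0.0591. Il1a, the other IL-1 agonist, had 0 counts in both Sham libraries and 8 and 4 in MI, all under the floor. Its receptor Il1r1 (ENSMUSG00000026072, chromosome 1, 40225080 to 40317257), the signalling chain, had 25.3 and 32.2 CPM in Sham against 17.8 and 11.8 in MI. That is a log2 difference of -0.96 ± 0.26 (edgeR adjusted p = 0.339; DESeq2 adjusted p = 0.0384), and its unadjusted p went over 0.05 without MI replicate 2. For Il1r1 limma on log2(FPKM + 1) gave an unadjusted p of 0.0837. The shared accessory chain Il1rap differed in sign. It had 2.99 and 4.28 CPM in Sham against 4.89 and 5.04 in MI, a log2 difference of 0.45 ± 0.28 (edgeR adjusted p = 0.576).

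The decoy receptor and the antagonist of IL-1 among the members had low values in MI as well. Sigirr and Irak3, listed with the shared signalling genes and not members, did not follow. Sigirr had 0.99 and 0.5 FPKM in Sham against 2.01 and 1.62 in MI (1.03 ± 0.43), and Irak3 overlapped between groups (-0.01 ± 0.44). Il1r2, a decoy receptor that binds IL-1 without signalling (ENSMUSG00000026073, chromosome 1, 40074079 to 40125231), had 4.03 and 1.48 CPM in Sham against 0.635 and 0.645 in MI. It had the most negative difference of the 40, -2.10 ± 0.59 (edgeR adjusted p = 0.344; DESeq2 adjusted p = 0.0477), which was -1.20 without Sham replicate 1. Its unadjusted p went over 0.05 without that library and without either MI library. Il1rn, the IL-1 receptor antagonist, had 1.76 and 0.724 CPM in Sham against 0.312 and 0.529 in MI (-1.56 ± 0.66, edgeR adjusted p = 0.459; -0.78 without Sham replicate 1). In both genes the highest library was Sham replicate 1. The same held for Il1b and for Il1f9, the IL-36 gamma ligand, which had 71 counts in Sham replicate 1, 0 in Sham replicate 2 and 8 and 14 in MI. Sham replicate 1 was the highest for 11 of the 40 tested members, where it was for 27.5% of all genes tested. Neutrophil markers were also highest in that library: their sum there was 62.8 FPKM, next to 11.4 for Sham replicate 2 and 20.7 and 9.42 for MI. All 6 of the 8 that were tested had negative differences with 0 at an unadjusted p under 0.05, and Ly6g had 13 counts in Sham replicate 1 and 0 elsewhere. The part of neutrophil transcripts in these 4 results was not tested.

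Among the remaining IL-1 family members, Il1rl2, the IL-36 receptor, had 2.64 and 3.82 CPM in Sham against 2.01 and 1.33 in MI (-0.95 ± 0.38). Il18rap, the IL-18 accessory chain, had 1.73 and 0.678 against 0.456 and 0.645 CPM, again with its highest value in Sham replicate 1. Il18 stayed between 4 and 32 counts in the 4 libraries. Its binding protein Il18bp, which neutralises IL-18, exceeded it by 8.09 times in FPKM in Sham replicate 2 and by 7.82 times in MI replicate 1, the libraries in which Il18 was above the floor. Il18bp had 6.86 and 8.78 CPM in Sham against 8.58 and 8.78 in MI (0.15 ± 0.21). Some exons of Il18bp overlap Numa1 on the opposite strand, which had 3916 and 3097 counts in Sham against 5890 and 5260 in MI. If the counting did not use the strand, which is not stated, reads of that overlap cannot be told apart. Il18r1 had 1.07 and 0.693 CPM in Sham against 1.55 and 0.374 in MI, so its MI libraries lay on either side of Sham.

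**Figure D4:**
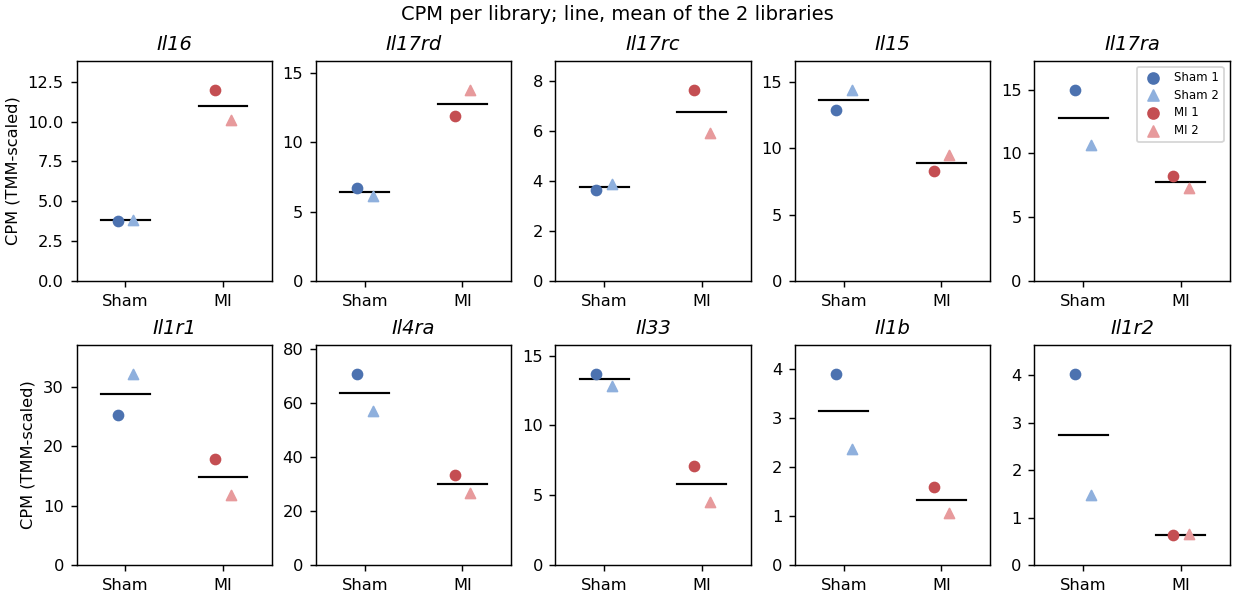
TMM-scaled CPM in each library (points; circles replicate 1, triangles replicate 2) with the mean of the 2 libraries of a group (lines), for the 10 genes with non-overlapping groups and an unadjusted p under 0.05. Each vertical axis starts at 0. Il16, Il17rd and Il17rc are higher in MI, and the other 7 are lower.

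Among receptor chains of the IL-2, IL-4 and IL-13 group, Il4ra had lower values in both MI libraries. This chain, through which IL-4 and IL-13 both signal (ENSMUSG00000030748, chromosome 7, 125552120 to 125579474), had 70.8 and 56.9 CPM in Sham against 33.4 and 26.7 in MI. The log2 difference was -1.09 ± 0.19 (edgeR adjusted p = 0.249; DESeq2 adjusted p = 0.000232). Both MI libraries lay far below both Sham libraries, and the unadjusted p stayed under 0.05 in all 13 alternatives. Il2rg, its partner in the type I receptor, went the other way without passing: 7.27 and 9.48 CPM in Sham against 16 and 9.6 in MI (0.61 ± 0.31, edgeR adjusted p = 0.515; 0.21 without MI replicate 1). MI replicate 2 was level with Sham replicate 2. The alternative partner Il13ra1 had 29.9 and 35.5 against 29.8 and 31.2 CPM. The IL-4 ligand gene had between 4 and 21 counts, and Il13 had 0.

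Il15 was lower in MI, at 12.9 and 14.4 CPM in Sham against 8.3 and 9.49 in MI (-0.62 ± 0.18, edgeR adjusted p = 0.344). Its replicates differed by less than the groups did, though the unadjusted p went over 0.05 without MI replicate 1 or without MI replicate 2. Limma on log2(FPKM + 1) gave Il15 an unadjusted p of 0.0861. Its presenting receptor Il15ra had 21.1 and 14.3 CPM in Sham against 15.3 and 18.9 in MI, which overlapped. The signalling chain Il2rb, shared by IL-2 and IL-15 and carried by NK and T cells, had 0.708 and 1.83 CPM in Sham against 0.935 and 0.4 in MI. The T-cell markers (12) summed to 0.53 and 2.9 FPKM in Sham against 2.35 and 1.13 in MI. Il7r, the IL-7 receptor of lymphocytes, spread the most among the lymphoid chains, at 0.551 and 1.12 CPM in Sham against 1.55 and 0.348 in MI. Il2ra had 1.75 and 1.12 CPM in Sham against 1.47 and 2.86 in MI, and Il21r 0.551 and 1.06 against 1.41 and 0.748; both overlapped. MI replicate 1, the library with lung transcripts, was the highest for 11 of the 40 tested members, where it was for 27.2% of all genes tested. Among these members were Il2rg, Il7r, Il21r and Il18r1. The part of lung tissue in those values was not tested.

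Among the IL-17 receptors, Il17rd and Il17rc had higher values in MI and Il17ra lower ones. Il17rd, also known as Sef, an inhibitor of FGF signalling that associates with IL-17RA (ENSMUSG00000040717, chromosome 14, 27038941 to 27107286), had 6.67 and 6.15 CPM in Sham against 11.9 and 13.8 in MI. The log2 difference was 1 ± 0.18 (edgeR adjusted p = 0.266; DESeq2 adjusted p = 0.00485), between 0.91 and 1.11 with any single library left out. Il17rc, the chain that joins IL-17RA to bind IL-17A and IL-17F, had 3.65 and 3.88 CPM in Sham against 7.66 and 5.91 in MI (0.85 ± 0.24, edgeR adjusted p = 0.344; 0.66 without MI replicate 1, with an unadjusted p over 0.05). Il17ra, the common chain, lay on the other side: 15 and 10.7 CPM in Sham against 8.25 and 7.31 in MI (-0.72 ± 0.23, edgeR adjusted p = 0.367). Its difference was -0.46 without Sham replicate 1, and the unadjusted p went over 0.05 there and without either MI library. The unadjusted p of Il17ra was 0.176 in limma on log2(FPKM + 1). Il17re, the IL-17C receptor chain, had 16 and 41 counts in Sham against 45 and 2 in MI, so the MI libraries lay on either side of Sham. Il17rb had at most 38 counts in any library. Of the IL-17 ligands, Il17d was the 1 above the floor in all 4 libraries. It had 0.393 and 1.83 CPM in Sham against 1.28 and 1.79 in MI, and its difference ran from -0.25 to 1.96 depending on the Sham library left out.

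Il16 had the smallest p of the 40 tested members. Its product is a chemoattractant for CD4+ cells that is cut from a larger precursor (ENSMUSG00000001741, chromosome 7, 83642825 to 83745726). It had 3.79 and 3.82 CPM in Sham against 12 and 10.1 in MI. The Sham libraries were almost equal, and both MI libraries lay far above them. The log2 difference was 1.53 ± 0.20 (edgeR adjusted p = 0.201; DESeq2 adjusted p = 5.65e-06), with the same sign and an unadjusted p under 0.05 in all 13 alternatives. Some of its exons overlap Stard5 on the opposite strand, which had 542 and 255 counts in Sham against 729 and 667 in MI (log2 difference 0.48). Whether the counting used the strand is not stated, and if it did not, reads of the overlap cannot be told apart. Transcripts of Cd4, its known binding partner, were at 0.14 and 0.33 FPKM in Sham against 0.43 and 0.18 in MI.

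Il34, an alternative ligand of the CSF-1 receptor that maintains some tissue macrophages, had 5.62 and 2.03 CPM in Sham against 6.03 and 5.4 in MI. Sham replicate 1 was level with the MI libraries and Sham replicate 2 was low, so the difference of 0.58 ± 0.51 was 1.49 without Sham replicate 1 and 0.03 without Sham replicate 2. Il10ra, the IL-10 binding chain, showed the reverse, at 2.36 and 5.76 CPM in Sham against 5.24 and 5.71 in MI, with only Sham replicate 1 low. Il27ra, the receptor of IL-27, had 2.25 and 2.06 CPM in Sham against 3.51 and 3.41 in MI. Replicates were close and groups apart (0.68 ± 0.27, edgeR adjusted p = 0.437), while its ligand chain Il27 had 0 counts throughout. Il3ra, the IL-3 binding chain, had 2.34 and 2.96 against 5.07 and 3.03 CPM (0.61 ± 0.36), with MI replicate 2 just above Sham. Il11ra2 had 3.57 and 2.26 CPM in Sham against 2.23 and 1.59 in MI. It is a near-identical copy of Il11ra1, and reads of the pair may be divided between them.

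The 21 genes that did not pass the filter had at most 24 counts in any library. That maximum was Il5ra, the eosinophil IL-5 receptor chain, with 24 counts in Sham replicate 2 and 0 in the other 3 libraries. Counts in a single library only were seen for 12 of the 61 genes, 6 of them in Sham replicate 2, 4 in MI replicate 1 and 2 in MI replicate 2. Il10, the anti-inflammatory cytokine, had 19 counts in Sham replicate 2, 0 in Sham replicate 1 and 4 in each MI library. Sham replicate 2 was also the library in which B-cell markers were highest. The adipocyte markers Adipoq (1602 counts) and Retn (309 counts) had counts only there, and Cidec and Plin1 nearly so. Another adipocyte marker, Fabp4, was high in every library. The part of B cells or of other tissue in these counts was not tested. Il7, Il4, Il17c and Il22ra1 passed the filter with at most 21 counts in any library, so their differences carry little information.

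Ratios between chains within a library do not depend on library scaling. These pairs were chosen after the values were seen, and they are given without a test. An exact 2-sided permutation test of 2 against 2 libraries cannot give a p under 0.333. Il4ra exceeded Il2rg by 3.89 and 2.4 times in FPKM in the Sham libraries, while the ratio was 0.831 and 1.11 in MI. The Il4ra to Il13ra1 ratio was 1.46 and 0.991 in Sham and 0.693 and 0.529 in MI. The Il17rd to Il17ra ratio was 0.353 and 0.455 in Sham against 1.13 and 1.48 in MI, so the order of the 2 genes was reversed between the groups. Il33 exceeded Il1rl1 by 31.8 and 44.1 times in Sham and by 16 and 9.06 times in MI. The Il1r1 to Il1r2 ratio did not separate the groups: it was 1.89 in Sham replicate 1, 6.55 in Sham replicate 2, and 8.37 and 5.58 in MI.

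**Figure D5:**
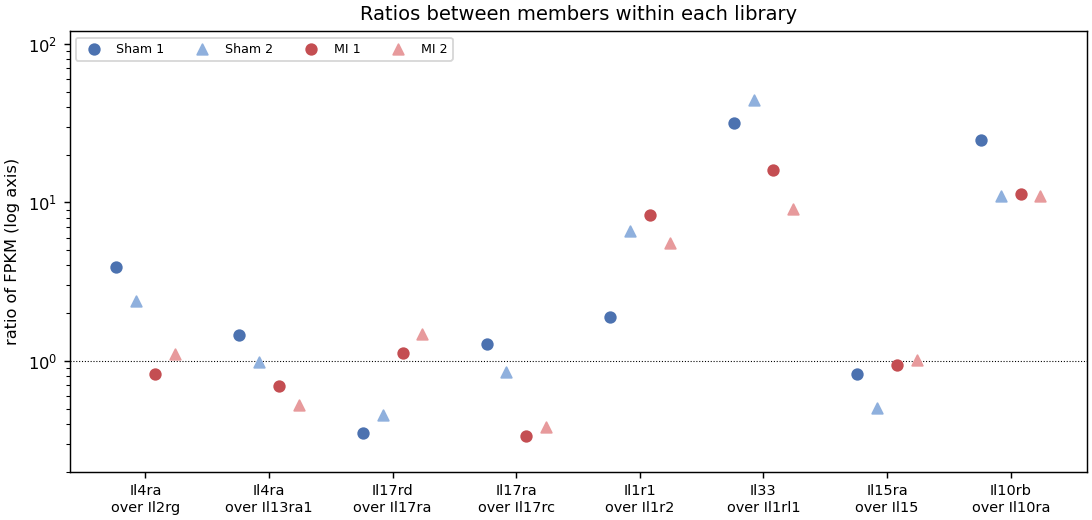
Ratio of FPKM between pairs of members within each library (vertical log axis; dotted line, equal levels). The Sham and MI points are apart for Il4ra over Il2rg, Il4ra over Il13ra1, Il17rd over Il17ra, Il17ra over Il17rc, Il33 over Il1rl1 and Il15ra over Il15, and overlap for Il1r1 over Il1r2 and Il10rb over Il10ra.

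All 28 listed genes that interleukin receptors share for signalling were tested, and 18 had negative differences, as had 9192 of the 18475 genes tested. In 9 each MI library exceeded each Sham library, and in 12 each was lower (24.9% and 21.9% of all genes tested). Of the 28, 1 was higher and 6 lower at an unadjusted p under 0.05 (7.12% and 4.51% of all genes tested), and the median log2 difference was -0.17. The lower genes were Socs3, Stat5a, Irak1, Nfkbia, Csf2rb and Csf2rb2. DESeq2 called 2 of the 28, both lower, where it called 1.26% of all genes tested lower. Socs3, a feedback inhibitor of JAK signalling, had 8.3 and 12.77 FPKM in Sham against 2.41 and 2.45 in MI (-2.32 ± 0.22, edgeR adjusted p = 0.185). Stat5a, a transcription factor downstream of IL-2, IL-7 and IL-15, had 1.95 and 2.13 against 1.46 and 1.2 FPKM (-0.84 ± 0.15, adjusted p = 0.266). Irak1, a kinase that acts after MyD88 in IL-1 signalling, had 8.27 and 9.53 against 6.97 and 7.1 FPKM (-0.55 ± 0.13). Csf2rb, the signalling chain of the IL-3 and IL-5 receptors, had 198 and 147 counts in Sham against 106 and 49 in MI (-1.50 ± 0.48). Csf2rb2, its close copy used by the IL-3 receptor, had 650 and 267 against 262 and 186 counts (-1.37 ± 0.49). Its highest library was Sham replicate 1, where neutrophil markers were also highest, and their part in the result was not tested. Reads of the pair may be divided between the copies. Nfkbia, the inhibitor of NF-κB, had 22.07 and 32.24 against 21.28 and 19.86 FPKM (-0.61 ± 0.17). Tyk2, a JAK kinase used by the IL-10 and IL-12 receptor families, was the 1 gene higher, at 1.42 and 1.71 against 2.79 and 2.18 FPKM (0.44 ± 0.16). Of 11 listed genes that process interleukins or act beside them, 8 had positive and 3 negative differences, with a median of 0.45. Among the 3, Casp4, an inflammatory caspase, had 1.55 and 2.19 against 0.96 and 1.1 FPKM (-1.06 ± 0.25, unadjusted p under 0.05). Casp1, which cuts pro-IL-1β and pro-IL-18, had 0.44 and 0.53 against 0.94 and 0.71 FPKM (0.55 ± 0.31).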

How the data were processed

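RNA sequencing of 2 Sham and 2 MI heart libraries was read from a single table of 55401 genes. Per the file headers, the deposited columns hold an estimated count (a whole number) and an FPKM for each gene and library, the FPKM being the authors' own scaling to gene length and library total. The submitters' processing notes list HISAT2 2.0.4 among the tools, beside StringTie 1.3.4d, cutadapt 1.9 and UMI-tools. Not given in the sources used here: the build, the strand setting of the counting and the use of molecular identifiers. By identifier, 50 of the 61 members have the same start and end in GENCODE M21 (GRCm38), whose build is used for positions. Floors cover counting error only.

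In edgeR 4.0.16 under R 4.3.3, filterByExpr removed low genes (min.count 10, min.total.count 15) and TMM set the scale. MI was compared with Sham by the quasi-likelihood test, 2-sided and without covariates, and p-values were adjusted by Benjamini-Hochberg over 18475 genes. DESeq2 1.42.0 and limma 3.58.1 on log2(FPKM + 1) were alternatives, with other scalings, filters, a replicate block and each library left out. The script was tested on simulated counts. Nothing says the replicates are separate animals, so p-values measure the spread between libraries. The members, roles and lists were chosen with earlier results of these data known. Values in every library are given for members with non-overlapping groups and an unadjusted p under 0.05, the 6 ligands and 6 receptors of highest mean FPKM, the 5 with the largest log2 gap between replicates (on CPM + 0.1), the soluble proteins that were tested, and partners of these; other members named with values were chosen after their values were seen. Promoters were matched by symbol to RefSeq for 49 of the 61 members. One gene of a partner list is not reported here.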

Additional observations from a re-analysis of the deposited data

How the results depend on the processing

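Il16, Il33, Il4ra and Il17rd had the same sign and an unadjusted p under 0.05 in all 13 alternatives, and Il1r1, Il1r2, Il1b, Il15, Il17ra and Il17rc the same sign. After adjustment DESeq2 called 6 members and 635 genes, against 0 in edgeR; the cause was not tested. With a library left out, the genes called numbered 0 to 14, and the members' median log2 difference (0.07 with all libraries) ran from -0.50 to 0.10, that of ligands from 0.00 to 0.36 and that of receptors from -0.30 to 0.16. The members' median was 0.19 in limma with a pseudocount of 0.1. With the replicate number as a block, the members' median was -0.06 and the ligands' -0.27, 0 genes were called, and Il7r (-0.08) and Il18r1 (-0.16) changed sign. The numbers name no shared animal or day, and the difference between replicates correlated at -0.0561 between the groups over genes.

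Small differences changed sign elsewhere. Il10rb was -0.01 with DESeq2 and with RLE factors, but 0.21 and 0.23 in limma with pseudocounts of 1 and 0.1. In those limma fits Il13ra1 was 0.11 and 0.12 and Il15ra 0.15 and 0.19. With a library left out, Il10rb ran from -0.04 to 0.06, Il13ra1 from -0.22 to 0.03, Il15ra from -0.30 to 0.26, Il17d from -0.25 to 1.96, Il18bp from -0.01 to 0.34, Il7r from -1.26 to 0.89, Il18r1 from -1.22 to 0.82, Il17re from -4 to 0.30 and Il1f9 from -3.00 to 6.40, the last from a Sham library at 0. Such fits leave an arm with 1 library, assumed to vary like the other group. Non-overlapping members numbered 19 to 23 over the scalings tried. Depth limits low members: 21 of the 61 did not pass the filter.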
